A study of Homo sapiens with 4 samples.

Results

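The genes described here are 8 neuropeptide and granin genes, NPY, GAL, VGF, SCG2, SCG3, SCG5, PCSK1N and ADM, taken by their symbols from a table of 24014 genes. RNA-seq measured them in SK-N-SH, a neuroblastoma cell line of human origin and sympathetic lineage whose cultures hold adrenergic, neuroblast-like cells and mesenchymal, flat cells. In 2 libraries the cells had received a lentiviral vector without an insert (control 1 and 2), and in 2 a lentivirus that expresses AP1AR-DT, a long non-coding RNA which the labels call AC109347.1 (AP1AR-DT_OE 1 and 2). The controls are labelled wild type. For AP1AR-DT_OE 2, genotype and treatment are labelled AC109347.2, although its title has AC109347.1. The study's vector is a pCDH plasmid. No source used here gives the time from transduction to these libraries, or says whether replicates were separate cultures, so p-values measure the spread between these libraries, which may be technical.

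Neuropeptides are cut from larger precursors inside dense-core vesicles and are released when a cell is stimulated. Granins are acidic proteins that fill the same vesicles and help to form them, and several are themselves precursors of peptides or regulate the enzymes that cut them. Sympathetic neurons, adrenal chromaffin cells and neuroblastoma cells are classic sources of NPY, galanin and granins. Stimuli that raise cyclic AMP or calcium switch on VGF and SCG2, whereas low oxygen is a well-known inducer of ADM.

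The peptide precursors are NPY, which encodes neuropeptide Y (chr7:24284188-24291862, plus strand, 5 exons in its longest transcript), GAL, which encodes galanin (chr11:68683779-68691175, plus strand, 6 exons), and ADM, which encodes the vasodilator adrenomedullin (chr11:10305073-10307397, plus strand, 3 exons). The granins are VGF, a neurotrophin-inducible precursor (chr7:101162509-101165569, minus strand, 2 exons), SCG2, the precursor of secretoneurin (chr2:223596940-223602361, minus strand, 2 exons), and SCG3, which tethers granin aggregates to the vesicle membrane (chr15:51681492-51721026, plus strand, 12 exons). SCG5 encodes 7B2, the chaperone and inhibitor of the convertase PCSK2 (chr15:32641676-32697098, plus strand, 6 exons). PCSK1N encodes proSAAS, an inhibitor of the convertase PCSK1 (chrX:48831096-48835610, minus strand, 3 exons). Positions are GRCh38 as the deposited table gives them. SCG5 shares exon sequence with the readthrough gene ARHGAP11A-SCG5 and with SCG5-AS1 on the opposite strand, so its count is uncertain, whereas no other annotated exon overlaps those of the other members.

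The coding sequences differ widely in base composition. Shown here are the first 150 coding bases from the longest transcript of each gene with a high or low extreme, taken from GENCODE v44. They are written 5′ to 3′, with capitals for adjacent in-frame codons for lysine or arginine.
PCSK1N: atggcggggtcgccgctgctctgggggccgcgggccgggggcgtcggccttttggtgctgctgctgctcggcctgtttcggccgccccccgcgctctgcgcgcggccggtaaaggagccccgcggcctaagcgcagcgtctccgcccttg
VGF: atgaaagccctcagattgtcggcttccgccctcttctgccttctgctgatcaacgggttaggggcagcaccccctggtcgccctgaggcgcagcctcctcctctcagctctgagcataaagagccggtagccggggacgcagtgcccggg
SCG2: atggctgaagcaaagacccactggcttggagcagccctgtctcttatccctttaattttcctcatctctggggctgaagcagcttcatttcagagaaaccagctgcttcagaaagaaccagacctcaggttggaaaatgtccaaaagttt
SCG3: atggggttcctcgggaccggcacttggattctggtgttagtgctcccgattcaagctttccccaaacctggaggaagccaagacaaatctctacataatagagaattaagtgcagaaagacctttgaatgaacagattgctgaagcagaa
GAL: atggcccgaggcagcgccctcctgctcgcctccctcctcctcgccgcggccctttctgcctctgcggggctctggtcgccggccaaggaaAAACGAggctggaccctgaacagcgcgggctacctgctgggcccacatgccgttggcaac
The GAL stretch is added because it shows a basic codon pair, the usual signal for precursor cleavage, directly before the start of the galanin peptide. Over the whole coding sequence, GC content was 75.8% in PCSK1N and 71.5% in VGF, against 45.1% in SCG2 and 38.9% in SCG3. VGF has 17 such codon pairs in 615 codons, against 9 in the 617 codons of SCG2. Per 100 codons ADM has the most, at 4.32, followed by SCG5 at 2.84 and VGF at 2.76. Overlapping pairs were each counted, as at coding bases 91 and 94 of ADM, so these are not numbers of separate sites.

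RefSeq promoter entries matched 6 of the 8 members, the exceptions being GAL and SCG2. The 250 bases upstream of the VGF start are shown because they hold a full cyclic AMP response element, the site through which cyclic AMP signalling acts on this gene. They lie at chr7:101165570-101165819 on the minus strand of GRCh38.p14, and capitals mark that element at -79 from the start and a match to the motif of NRF1, a factor examined in the study, at -171.
VGF upstream: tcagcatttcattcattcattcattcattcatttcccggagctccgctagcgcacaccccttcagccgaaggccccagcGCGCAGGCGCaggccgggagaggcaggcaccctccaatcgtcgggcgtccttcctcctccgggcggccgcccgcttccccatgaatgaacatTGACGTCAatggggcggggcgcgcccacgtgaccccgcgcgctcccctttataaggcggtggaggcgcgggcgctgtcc
Windows running from 250 bases before to 50 bases after a start were searched on both strands. TGACGTCA was found in 1.85% of 35116 such windows, and the NRF1 motif, with GCGC on either side of a central pair of bases whose first is A, in 5.78%. Among the 6 matched members VGF alone held either. VGF also alone held ACGTG, a form of the hypoxia response element core, present in 21.4% of windows. The form GCGTG was not searched, so its share of windows is not known. It is not particular to ADM, since the windows of NPY, VGF, ADM, SCG3 and PCSK1N all hold it. Members without ACGTG therefore cannot be said to lack a core. PCSK1N alone held the AP-1 element TGANTCA, present in 7.71%. A match is a description of the letters, and no binding was measured here.

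The libraries held 21988065 to 26184599 counts, with 19833 to 21280 genes above 0 in each. AP1AR-DT itself had 3 counts in control 1 and 18 in control 2, against 680 in AP1AR-DT_OE 1 and 1065 in AP1AR-DT_OE 2, which matched the labels. Its log2 fold change was 6.63 (SE 0.64, adjusted p = 3.64e-21 in DESeq2). With edgeR's quasi-likelihood test it was 6.60 and was not called (adjusted p = 0.390). Of the adrenergic markers, 17 of 19 analysed were expressed, which here means a normalized count that averaged 50 or more over the libraries, including PHOX2A, HAND2, GATA3 and DBH, and TH was not analysed here. Their summed normalized counts were 38602 to 49373 in controls and 43835 to 46462 in AP1AR-DT_OE. Mesenchymal markers were likewise present, at 19 of 20, and summed to 216160 to 293445 in controls and 236922 to 290309 in AP1AR-DT_OE. No adrenergic or mesenchymal marker was called, and their median log2 fold changes were 0.02 and -0.01. In bulk RNA, fewer cells of a type and less RNA per cell cannot be told apart.

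The members differed by more than 3 orders of magnitude in level, with VGF dominant. On the scale of normalized counts per kb of the longest transcript, averaged over the 4 libraries, VGF stood at 19099 and ranked 95th of 23954 genes. SCG2 followed at 4834 and PCSK1N at 1346. SCG5 reached 308, ADM 242 and NPY 193, while GAL lay at 58.1 and SCG3 at 12.1. Ranges over the libraries did not overlap between neighbours in this order, with the exceptions of SCG5 with ADM and ADM with NPY. SCG5 was above ADM in 4 of 4 libraries all the same, and ADM was above NPY in 2 of 4.

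**Figure D1:**
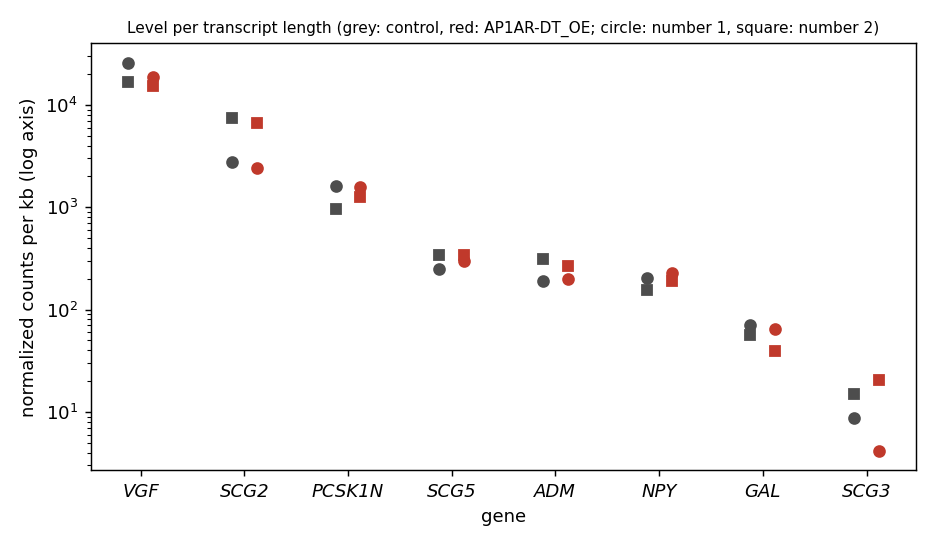
Normalized counts per kb of the longest transcript (log axis) of each gene, with 1 point per library (grey, control; red, AP1AR-DT_OE; circles, number 1; squares, number 2). VGF lay between 15160 and 25833 in the 4 libraries and SCG3 between 4.17 and 20.7.

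The members together took 0.222% to 0.314% of a library's counts. VGF and SCG2 made up 95.4% to 96.6% of that sum in each library. The share of VGF alone was 87.6% in control 1 and 84.9% in AP1AR-DT_OE 1, but 67.7% in control 2 and 67.6% in AP1AR-DT_OE 2. In counts as deposited, the balance between the 2 main granins therefore followed the replicate number of the library, not its group. This is not particular to granins, since normalized counts were apart by number in 80.5% of expressed genes. VGF and SCG2 also differ in transcript GC content (70.5% and 42.5%), which the ratio between numbers followed over all genes, as described below.

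To ask whether AP1AR-DT changed any of these genes, the members were read from a DESeq2 fit over all 24014 genes. None of the 8 was called at an adjusted p under 0.05, where 0.137% of all genes were (33 genes, with 0.0833% higher and 0.0541% lower), and none had an unadjusted p under 0.05, where 0.816% of all genes did. edgeR's quasi-likelihood test called no gene of the whole table (112 genes, none a member, had an unadjusted p under 0.05), so its lack of a call says nothing about the members. Fitted log2 fold changes ran from -0.34 (VGF) to 0.22 (NPY), 4 above 0 and 4 below. Their median was -0.01, against -0.03 for all genes tested. None of the 8 had both AP1AR-DT_OE libraries below both controls, as 4.35% of the 13298 expressed genes had, or above both, as 5.11% had, making 9.45% in either direction (6 members count as expressed, the exceptions being GAL and SCG3). The fit allowed sizeable changes all the same. The narrowest 95% interval, that of VGF, ran from -1.21 to 0.54 on the log2 scale.

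**Figure D2:**
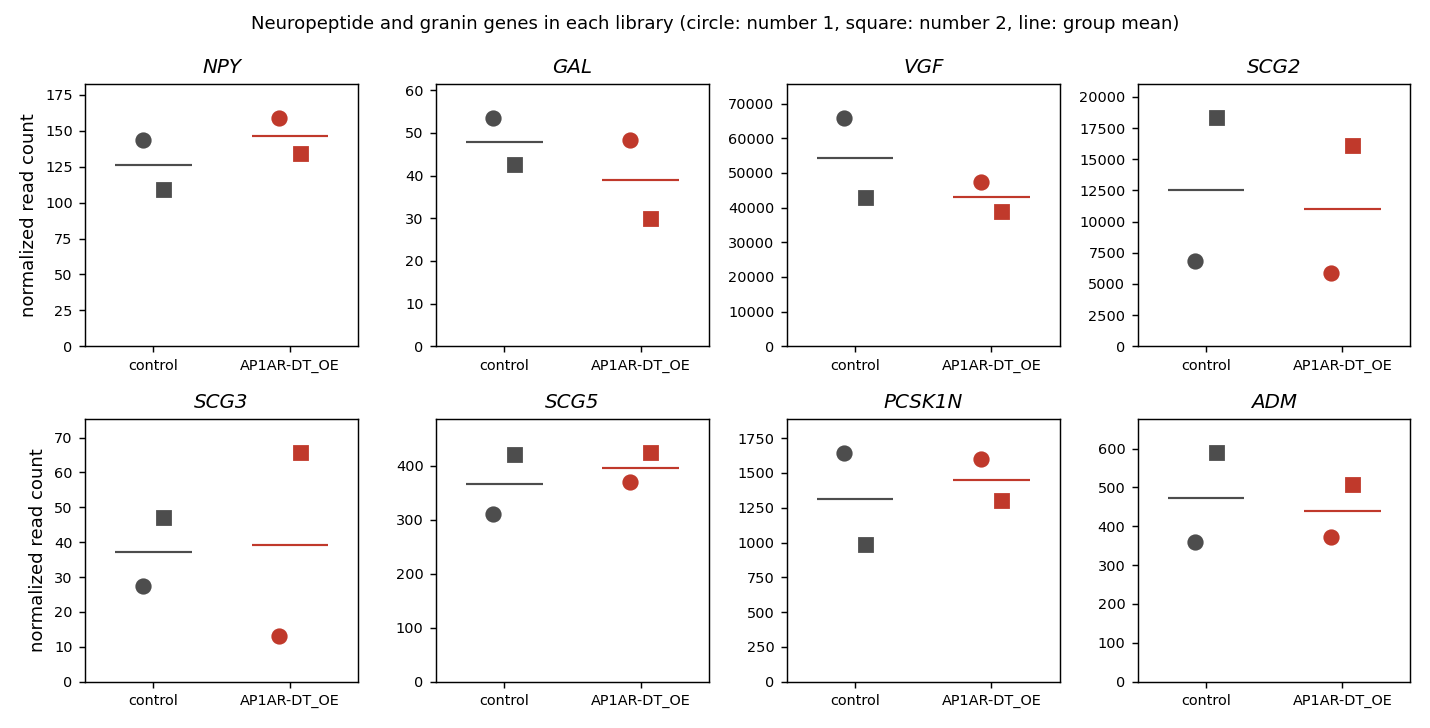
Normalized read count of each gene in each library (grey, control; red, AP1AR-DT_OE; circles, number 1; squares, number 2), with horizontal lines at the group means of n = 2 and the vertical axis from 0. In all 8 panels the groups overlap, and in SCG2 both squares (18312 and 16079) lie far above both circles (6811 and 5863).

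Among the peptide precursors, NPY had counts of 126 and 141 in control and 145 and 135 in AP1AR-DT_OE. Its normalized read count was 126 ± 24.6 in the control group and 147 ± 17.7 with AP1AR-DT (SD, n = 2 each). The counts as deposited were nearly level, while normalized counts ran from 109 in control 2 to 159 in AP1AR-DT_OE 1. The log2 fold change of 0.22 (SE 0.59, 95% interval -0.94 to 1.37) was within this spread. GAL was scarce, with 47 and 55 counts in the controls and 44 and 30 with AP1AR-DT. A read pair was worth about 4 counts, so few pairs stand behind these values, and AP1AR-DT_OE 2 was the lowest. The log2 fold change of GAL was -0.30 (SE 0.84, 95% interval -1.95 to 1.35). ADM had counts of 316 and 762 in control and 339 and 511 in AP1AR-DT_OE, so it was high in both number 2 libraries. Its normalized read count was 474 ± 161 in the control group and 440 ± 95.7 with AP1AR-DT (SD, n = 2 each), a log2 fold change of -0.11 (SE 0.51, 95% interval -1.11 to 0.89). Within number 1 and number 2, the log2 ratios of AP1AR-DT_OE to control were 0.15 and 0.30 for NPY, -0.15 and -0.51 for GAL, and 0.05 and -0.21 for ADM.

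VGF had counts of 57861 and 55607 in control and 43231 and 38964 in AP1AR-DT_OE. Both AP1AR-DT_OE counts were below both controls, but the libraries differ in depth, and 11.5% of expressed genes were lower in both in the same way. After normalization VGF stood at 65900 and 42894 in the controls and at 47420 and 38673 with AP1AR-DT. Control 2 then lay between the AP1AR-DT_OE libraries. The log2 fold change was -0.34 (SE 0.45, 95% interval -1.21 to 0.54), and the unadjusted p of 0.450 was the smallest of the members. Without control 1 the log2 fold change was 0.0047. Within number 1 the log2 ratio of AP1AR-DT_OE to control was -0.47 and within number 2 it was -0.15, with 1 library a side and no test.

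SCG2 had 5980 counts in control 1 and 23739 in control 2, and 5345 in AP1AR-DT_OE 1 and 16200 in AP1AR-DT_OE 2. Both number 2 libraries were high and both number 1 libraries low, whatever the group. The normalized read count was 12561 ± 8133 in the control group and 10971 ± 7224 with AP1AR-DT (SD, n = 2 each), so the SD within each group was several times the difference between them. The log2 fold change was -0.20 (SE 0.59, 95% interval -1.36 to 0.97). It became 0.70 without control 2 and 0.35 without AP1AR-DT_OE 1, whereas the ratios within numbers were -0.22 and -0.19.

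SCG3 had counts of 24 and 61 in control and 12 and 66 in AP1AR-DT_OE, the low value being no more than the floor of 12 counts (3 read pairs). Its log2 fold change of 0.08 had the widest interval, -1.88 to 2.03, and the ratios within numbers were of opposite sign, -1.05 and 0.48. Without AP1AR-DT_OE 2 the fold change was -1.52. SCG5 had counts of 273 and 544 in control and 337 and 426 in AP1AR-DT_OE, with a log2 fold change of 0.12 (SE 0.49, 95% interval -0.85 to 1.08). Of the convertase inhibitors, PCSK1N was the more abundant, with 1441 and 1271 counts in the controls and 1460 and 1307 with AP1AR-DT. Its normalized read count was 1311 ± 467 in the control group and 1449 ± 215 with AP1AR-DT (SD, n = 2 each), a log2 fold change of 0.15 (SE 0.47, 95% interval -0.78 to 1.07). Within number 1 and number 2 the log2 ratios were 0.25 and 0.01 for SCG5 and -0.04 and 0.40 for PCSK1N. The sign of the change depended on which library was left out in SCG5, PCSK1N and ADM too, at -0.085 for SCG5 without control 1, -0.17 for PCSK1N without control 2 and 0.30 for ADM without control 2.

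**Figure D3:**
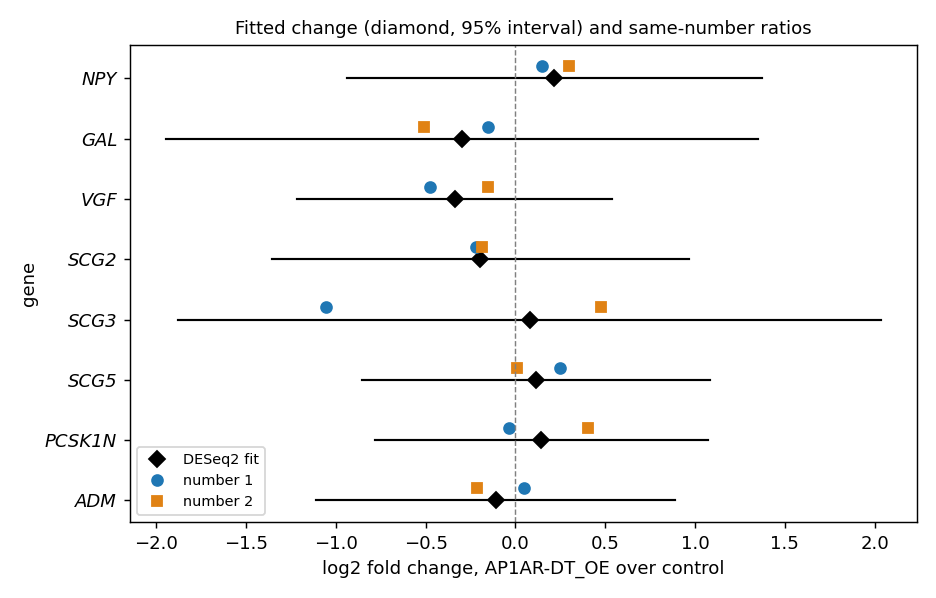
Fitted log2 fold change of AP1AR-DT_OE over control for each gene (diamonds, with 95% intervals as lines) and the log2 ratios within number 1 (circles) and number 2 (squares). All 8 intervals span 0, and the 2 ratios share a sign in 5 of the 8 genes.

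The members separated the libraries by replicate number far more than by group. In all 8, the number 2 libraries did not overlap with the number 1 libraries. SCG2, SCG3, SCG5 and ADM were higher in number 2, as 38.9% of expressed genes were, and NPY, GAL, VGF and PCSK1N were lower, as 41.6% were. The numbers were thus apart in 80.5% of expressed genes, so the separation belongs to the libraries as a whole. SCG2 was the only expressed member at least 2-fold higher in number 2 in both groups, at 2.69-fold in control and 2.74-fold in AP1AR-DT_OE, where 8.51% of expressed genes reached this in both. No member fell by as much in both, where 0.662% of expressed genes did. The labels do not say what the numbers stand for.

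The direction followed the GC content of the transcript. It ranged from 40.9% in SCG3, 42.5% in SCG2 and 46.5% in SCG5 through 57.9% in NPY, 58.5% in ADM and 59.4% in GAL to 70.5% in VGF and 74.3% in PCSK1N, with a median of 49.0% over 13284 genes. Across those genes, which are not independent replicates and share the 4 libraries, Spearman's rho between GC content and the log2 ratio of number 2 to number 1 was -0.77 in control and -0.65 in AP1AR-DT_OE. Over the 8 members it was -0.86 in both. ADM stood against the trend, with log2 ratios of 0.71 and 0.45 at a GC content close to that of NPY (-0.40 and -0.25).

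**Figure D4:**
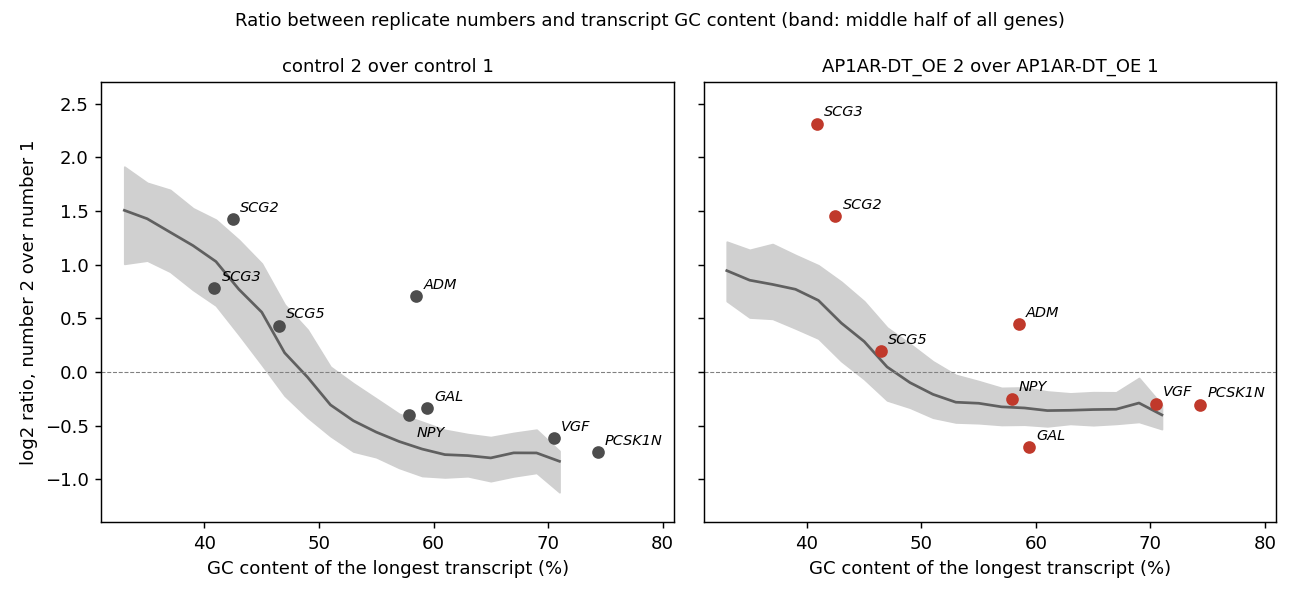
Log2 ratio of number 2 to number 1 in control (left) and AP1AR-DT_OE (right) against transcript GC content, with the line at the median of all genes in a GC bin and the band over the middle 50% of them. SCG2 and ADM lie above the band in both panels, whereas SCG5 lies within it in both.

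After the GC trend of each library was taken out, SCG2 and ADM were still higher in both number 2 libraries than in both number 1 libraries, whereas the other 6 members were no longer apart (63.7% of expressed genes were). The log2 ratio of number 2 to number 1 was then 0.60 in control and 0.95 in AP1AR-DT_OE for SCG2, and 1.40 and 0.77 for ADM. For VGF it became 0.18 and 0.04. On this scale VGF was 51517 and 58540 in the controls and 40841 and 42087 with AP1AR-DT, so both AP1AR-DT_OE libraries lay below both controls, as in 8.93% of expressed genes. The log2 fold change was -0.41 (SE 0.23, adjusted p = 1.00 in DESeq2), so VGF was not called. GAL was also lower in both AP1AR-DT_OE libraries, and NPY, SCG5 and PCSK1N were higher in both, as 9.7% of expressed genes were. In GAL and NPY the margin was less than the worth of a read pair. The nearest corrected values were 42.6 in control 1 and 42.3 in AP1AR-DT_OE 1 for GAL. For NPY they were 139 in control 2 and 140 in AP1AR-DT_OE 1. The nearest values of SCG5 (378 and 388) and PCSK1N (1351 and 1373), in the same 2 libraries, were close as well. Groups did not overlap in 18.6% of expressed genes on the corrected scale, and in 4 of the 6 expressed members. None of these members was called. VGF and PCSK1N exceeded 99.6% and 99.96% of genes in GC content, so few genes set the correction for them.

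Genes that stimulation of a cell switches on rapidly also differed between the numbers. Of 18 expressed cyclic AMP and activity-induced genes, 9 were at least 2-fold higher in number 2 in both groups after the GC correction, as were 1.53% of all expressed genes. The list was chosen with earlier results of these data known, so this count is a description only. The genes named next were chosen after their values were seen. FOS, a subunit of the AP-1 factor, had 54 counts in control 1 and 32 in AP1AR-DT_OE 1, against 19720 in control 2 and 8234 in AP1AR-DT_OE 2. EGR1, another immediate-early factor, had 713 and 709 counts in the number 1 libraries and 25803 and 17487 in the number 2 libraries. DUSP1, a phosphatase that ends kinase signalling, had 1950 and 1982 counts in number 1 and 10287 and 7902 in number 2. NR4A1, a nuclear receptor, had 563 and 644 in number 1 and 3024 and 1976 in number 2. VGF and SCG2 belong to this list too, but neither is among the 9. Before the GC correction the log2 ratios of number 2 to number 1 in control and AP1AR-DT_OE were 1.43 and 1.46 for SCG2 and -0.62 and -0.29 for VGF, and after it they were 0.60 and 0.95 for SCG2 and 0.18 and 0.04 for VGF. The part of these genes' state in the level of SCG2 was not tested. Between AP1AR-DT_OE and control none of the 21 analysed was called, none had an unadjusted p under 0.05, and their median log2 fold change was -0.16 (-0.12 without VGF and SCG2).

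**Figure D5:**
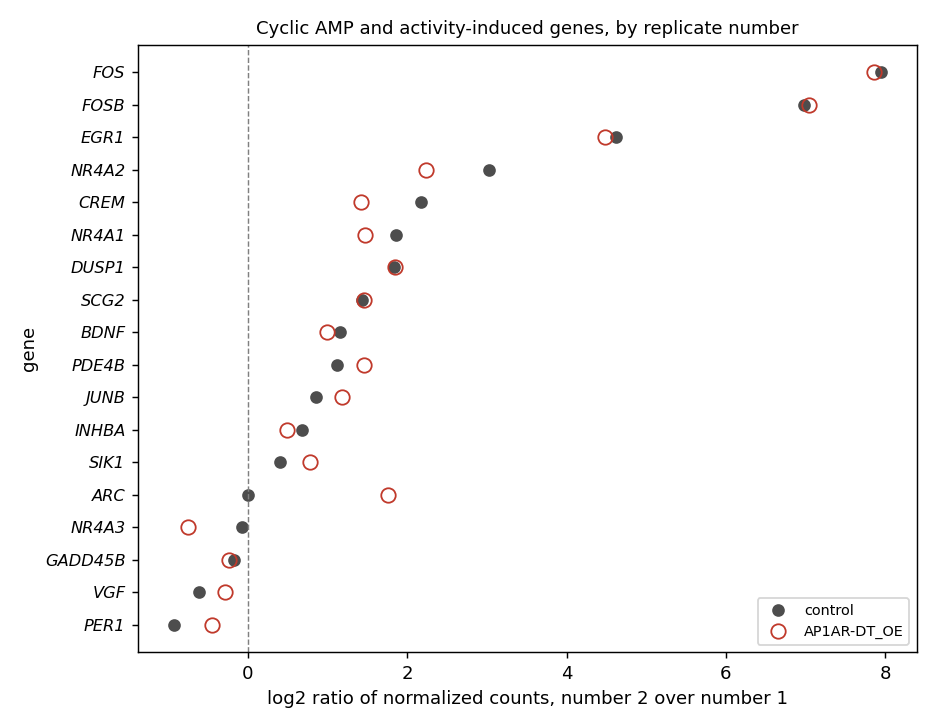
Log2 ratio of normalized counts, without GC correction, of number 2 over number 1 for 18 cyclic AMP and activity-induced genes, in control (filled) and AP1AR-DT_OE (open). FOS lies at 7.95 and 7.86, SCG2 at 1.43 and 1.46, and VGF on the other side of 0.

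The machinery around the members did not pass the test either. Of 8 other granins and granule cargo genes, 20 processing enzymes and 34 genes of dense-core vesicle formation and release, none was called and none had an unadjusted p under 0.05. Their median log2 fold changes were 0.02, -0.01 and 0.03. CHGA, the classic granin of chromaffin cells, had counts of 1127 and 1059 in control and 1088 and 917 in AP1AR-DT_OE. CHGB, its relative, had 239 and 341 in the controls and 244 and 323 with AP1AR-DT. Both groups overlapped for each after normalization, with log2 fold changes of 0.00 and 0.14.

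Of the convertases of the regulated pathway, PCSK1, which proSAAS inhibits, was not detected above the floor. It had counts of 1 and 0 in control and 0 and 4 in AP1AR-DT_OE, all under the floor of 12 counts that an observation of 0 allows. PCSK2, which SCG5 protein serves, was not analysed here. The later steps were present. CPE, the carboxypeptidase that trims basic residues, had counts of 1017 and 2971 in control and 1179 and 1874 in AP1AR-DT_OE (log2 fold change -0.13, SE 0.50). PAM, which amidates peptides such as NPY and adrenomedullin, had counts of 4280 and 7019 in control and 4804 and 4923 in AP1AR-DT_OE (log2 fold change -0.02, SE 0.42).

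Receptors of the member peptides were mostly scarce, and none of the 12 analysed was called. For NPY and galanin, NPY2R, NPY4R and GALR3 had no count in 3 libraries and 4 counts in AP1AR-DT_OE 2, and GALR2 had at most 12 in a library. NPY1R, NPY5R and GALR1 were not analysed here. CALCRL, the receptor core for adrenomedullin, had counts of 5 and 15 in control and 7 and 4 in AP1AR-DT_OE. Its partner RAMP2 had 204 and 123 in the controls and 172 and 126 with AP1AR-DT, and RAMP3 had 4 to 16 in a library. RAMP1 was more abundant, at 1087 and 1233 in the controls and 941 and 1142 with AP1AR-DT. For VGF peptides, C3AR1 had counts of 21 and 71 in control and 15 and 39 in AP1AR-DT_OE, whereas C1QBP, a mostly mitochondrial protein that also binds a VGF peptide, had 2310 to 3332 in a library.

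Of 64 other peptide precursors listed, 32 were analysed, of which 10 were expressed and 17 did not exceed the floor in any library. None was called or had an unadjusted p under 0.05, and the median log2 fold change was -0.03. Of 22 hypoxia-inducible genes, the group to which ADM belongs, and of 20 factors known at these promoters, none was called, with medians of -0.06 and -0.04. In the mesenchymal list, PRRX1, a homeobox factor of that state, was the 1 gene of all lists with an unadjusted p under 0.05, and it was named after its values were seen. It had counts of 2432 and 14724 in control and 1131 and 2263 in AP1AR-DT_OE, a log2 fold change of -2.02 (SE 0.61, adjusted p = 0.431 in DESeq2).

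Profiles over the 4 libraries were compared by the root mean square difference of centred log2 values, for the expressed members. NPY and PCSK1N were the most alike (0.12), followed by SCG5 and ADM (0.17), while SCG2 and PCSK1N were the least alike (1.01). Of 145 genes in the lists, the nearest to NPY was VIM (0.054), to VGF HID1 (0.10), to SCG2 ELAVL4 (0.096), to SCG5 SYT11 (0.073), to PCSK1N NUCB1 (0.040) and to ADM INHBA (0.027). With 4 libraries that differ mainly by number, these are descriptions only.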

How the data were processed

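Total RNA from 4 SK-N-SH libraries (TruSeq, paired reads) was assigned to groups and numbers by title. The deposited table holds read counts per gene, which the authors made, per the paper's methods, with HISAT2 on hg19 and StringTie's count script. Submitters' processing notes name TopHat2 2.0.4, SAMtools, HTSeq, Cuffdiff and edgeR 2.6.12 instead, and this was not resolved. Whether counting used strand is not given in the sources used here. Low values pile up at 4 (3287 entries, against 2136 at 3 and 1509 at 5), so a read pair is worth about 4 counts. The floor is 3 pairs, or 12 counts, and covers counting error only. The table's columns with the authors' own fold changes and p-values were not used.

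Counts were fitted as deposited with DESeq2 1.42.0 in R 4.3.3 (median-of-ratios size factors, two-sided Wald test, no covariate, default independent filtering), with Benjamini-Hochberg adjustment over all genes and calls at an adjusted p under 0.05. The study also used DESeq2, while the call rule was set here. edgeR 4.0.16 was an alternative, beside TMM factors, filters, a likelihood-ratio test, a correction for GC content (lowess, span 0.3), a block for replicate number, counts divided by 4, and leaving out each library. The procedure was tested on simulated counts. GC content, length and exon overlap came from GENCODE v44 mapped to GRCh37, with values for 23954 genes, and promoters from RefSeq on GRCh38.p14.

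Named genes were the 8 members, AP1AR-DT, every called gene of 10 lists, PCSK1, PCSK2, CPE, PAM, CHGA, CHGB, receptors of the member peptides and the list gene nearest in profile to each member. The receptors analysed also included CALCR and GPR83, whose values are not given. Other genes named were chosen after their values were seen, or are examples of the adrenergic markers. The members and lists were chosen with earlier results of these data known.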

Additional observations from a re-analysis of the deposited data

How the results depend on the processing

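No member was called under any of the 10 alternatives with 4 libraries or without any library in turn. Of 80 fold changes of members under alternatives with 4 libraries, 77 kept their direction, and those of SCG3 did not under the replicate block (-0.25 in DESeq2, -0.20 in edgeR) and the GC correction with the block (-0.18). Of 32 fold changes with a library left out, 10 turned. The values without a library were -0.60 to 0.0047 for VGF, -1.12 to 0.70 for SCG2 (0.35 also turned), -1.52 to 0.81 for SCG3 (-0.26 also turned), -0.085 to 0.36 for SCG5, -0.17 to 0.56 for PCSK1N (-0.021 also turned) and -0.42 to 0.30 for ADM (0.092 also turned). The lone library of a group is then assumed to vary like those of the other.

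Same-numbered libraries deviated together (correlation 0.49 over 13298 genes, 0.26 after GC correction), but nothing says that the numbers mark a batch, and there are 2 pairs only. With the replicate block DESeq2 called 37 genes, against 33 without it, and edgeR's quasi-likelihood test called 44, against 0 without it. With the block and the GC correction VGF had the smallest p of any member, with a log2 fold change of -0.41 (SE 0.11, adjusted p = 0.0612 in DESeq2), against adjusted p values up to 1.00 under the other alternatives.

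Genes called over the whole table numbered 0 with edgeR's quasi-likelihood test (112 had an unadjusted p under 0.05), 55 with the GC correction, 60 with the correction and the block, 15 with counts divided by 4, and 45 to 90 without a library. AP1AR-DT was not called by edgeR's quasi-likelihood test, with a log2 fold change of 6.60 (adjusted p = 0.390). The same test with the replicate block called it, with a log2 fold change of 6.70 (adjusted p = 1.85e-06). Correction and block together called FOS among the transcription factors (1 gene) and FOS and FOSB among the activity-induced genes (2 genes), and PRRX1 was the 1 mesenchymal marker called under the GC correction, the block (in DESeq2 and in edgeR), both together, and without control 1. The causes were not tested. Depth limits GAL and SCG3, the members closest to the floor.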
